A study of Rattus norvegicus with 6 samples.

Results

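The transcription factors described here are 10 genes that act in the neural crest: Sox9, Sox10, Snai1, Snai2, Twist1, Twist2, Tfap2a, Tfap2b, Tfap2c and Foxd3. They were found by exact gene symbol, and all 10 were in the table of 20653 genes, whose transcripts were sequenced from rat nasal mucosa mesenchymal stem cells. The labels describe the cells as primary, give SD as the genotype, and divide them into EMSC (3 libraries) and NPS-EMSC (3 libraries). NPS-EMSC are the cells that the series title describes as overexpressing neuropeptide S, a secreted peptide. The labels name no vector or other control treatment for EMSC, so gene delivery and the peptide cannot be told apart. They also do not say whether the libraries of a group came from separate cultures or animals, and p-values then measure only the spread between these libraries, which may be technical.

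The neural crest is an embryonic cell population that forms at the border of the neural plate, leaves the epithelium and migrates, and gives rise to much of the connective tissue of the face, to glia and to pigment cells. AP-2 factors act early at the border and in specification, Snail and Twist factors repress epithelial genes during the exit from the epithelium, and Foxd3 and the SoxE factors mark the specified crest. Later, Sox9 acts in cartilage and Sox10 in glia and pigment cells.

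Each library held 39082245 to 40261205 counted reads, and libraries of 1 group resembled each other (lowest Pearson correlation of log2 CPM, reads scaled to library size, 0.996 across genes) more than those of the other group (highest 0.964). The markers expected of mesenchymal stem cells (8 of 8) were present, with summed levels of 10794 to 12144 CPM in EMSC and 10669 to 11087 CPM in NPS-EMSC. Of the 5 markers expected to be absent, Cd34 was not, with 21.8 ± 1.66 CPM in EMSC against 5.75 ± 0.602 CPM in NPS-EMSC (SD, n = 3). Leukocyte markers summed to 54.3 to 67.8 CPM in EMSC and 7.52 to 9.28 CPM in NPS-EMSC, with 4 of 6 called lower. Most of the EMSC sum was Lyz2 (52.5 ± 7.71 CPM), while in NPS-EMSC Lyz2 had 3.84 ± 0.940 and Cd68 4.10 ± 0.417 CPM. The defining leukocyte gene Ptprc had 0.774 ± 0.267 CPM in EMSC against 0.00862 ± 0.0149 CPM in NPS-EMSC, and the part of such cells in the results below was not tested. Endothelial markers were at 2.67 to 3.11 and 2.29 to 2.98 CPM, and neuronal markers at 1.81 to 2.20 and 1.82 to 2.25 CPM. In bulk samples, fewer cells of a type and less RNA per cell cannot be told apart.

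Most of the neural crest factors that could be tested were lower in NPS-EMSC, and Snai2 changed most. Snai2 fell 4.62-fold and Snai1 2.41-fold, while Tfap2a rose 2.49-fold and Tfap2c 2.07-fold. Sox10 and Foxd3 were close to absent in both groups. Genes were tested with edgeR's quasi-likelihood test over all 14505 genes that passed the filter on low counts, and calls required a Benjamini-Hochberg adjusted p below 0.05. Of the 10 factors 8 passed the filter, with at least 44 reads in every library, and all 8 were called, 6 lower and 2 higher. The comparison called 59.3% of all tested genes, 29.5% lower and 29.7% higher. The median log2 fold change (NPS-EMSC minus EMSC) was -0.57 over the 8 and -0.0048 over all tested genes. The 3 values of each group did not overlap in 8 of 8 factors, as in 64.7% of all tested genes. Calls at 2-fold or more made up 14.8% of all tested genes, and 4 of the 8 factors reached that size (Snai1, Snai2, Tfap2a and Tfap2c).

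**Figure D1:**
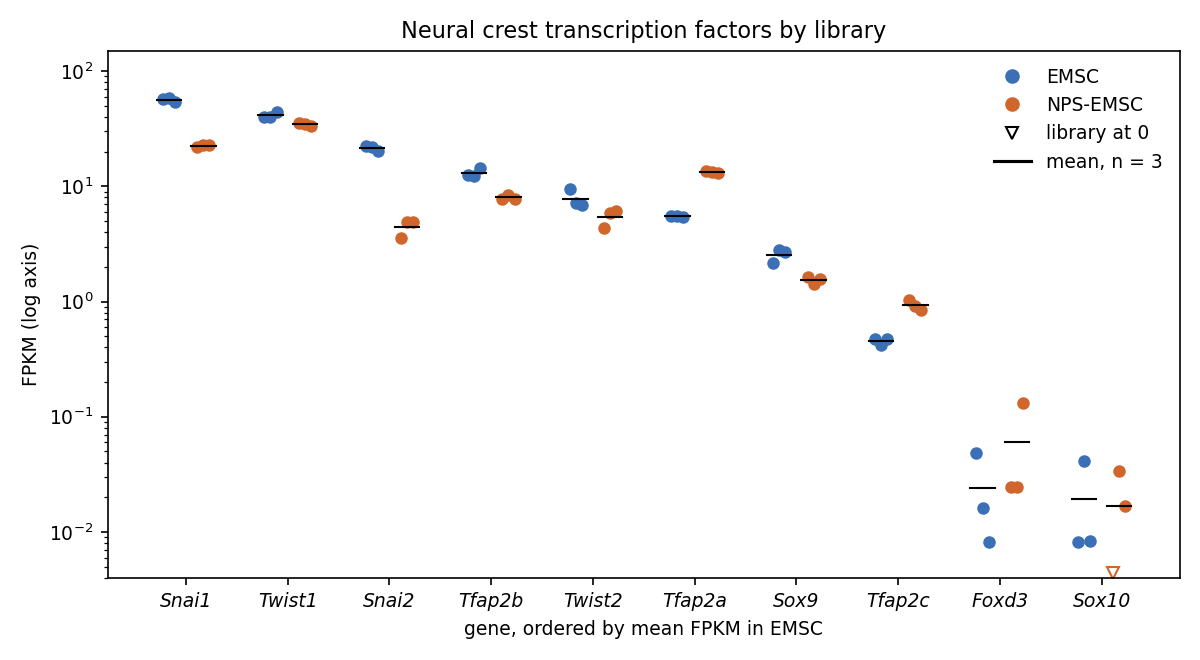
FPKM (counts scaled to gene length and library size, log axis) of the 10 factors in each library, with EMSC in blue, NPS-EMSC in orange and a bar at the group mean (n = 3); an open triangle is a library at 0. Tfap2a and Tfap2c lie higher in NPS-EMSC, the other tested factors lie lower, and Foxd3 and Sox10 sit below 0.2 FPKM in every library.

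On the FPKM scale, which divides by gene length and so allows levels of different genes to be set side by side, the order of the factors differed between the groups. In EMSC it ran from Snai1 (56.2 ± 2.26 FPKM, SD, n = 3) over Twist1 (41.3 ± 2.66) and Snai2 (21.5 ± 1.13) to Tfap2b (13.1 ± 1.15), then Twist2, Tfap2a, Sox9 and Tfap2c. In NPS-EMSC, Twist1 stood first (34.7 ± 0.988 FPKM), then Snai1 (22.6 ± 0.628), Tfap2a (13.3 ± 0.234) and Tfap2b (8.0 ± 0.414). Snai2 stood next to Twist2 in NPS-EMSC, and the libraries of these neighbours overlapped. The ranges of Foxd3 and Sox10 overlapped in both groups, and no other neighbours in either order did. Summed over the 10 factors, FPKM was 148 to 149 in the EMSC libraries and 89.1 to 92.8 in the NPS-EMSC libraries. Among all 20653 genes, 94.1% had a lower mean FPKM than Snai1 in EMSC and 85.6% in NPS-EMSC, and for Snai2 these shares were 85.3% and 61.2%. The lengths implied by the authors' values run from 807 bases for Snai2 to 5933 bases for Tfap2b, and reads outside a gene's model are not in its count.

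Snai1 (Snail) and Snai2 (Slug) encode zinc finger repressors that bind E-boxes with the letters CAGGTG and silence epithelial genes such as Cdh1. Snai1 stood at 56.8, 58.0 and 53.7 FPKM in the 3 EMSC libraries and at 21.9, 22.9 and 23.0 FPKM in the 3 NPS-EMSC libraries. Every EMSC library lay more than 2-fold above every NPS-EMSC library. The log2 fold change was -1.27 (SE 0.06, adjusted p = 3.87e-16). Snai2 had 22.2, 22.1 and 20.2 FPKM in EMSC and 3.55, 4.95 and 4.89 FPKM in NPS-EMSC. The groups were far apart, with a log2 fold change of -2.21 (SE 0.14, adjusted p = 4.16e-13), and the size of this change was above that of 96.1% of all tested genes. Summed over both genes, the family went from 73.8 to 80.1 FPKM in EMSC to 25.4 to 27.9 FPKM in NPS-EMSC. Snai2 made up 27.7% ± 0.397 of that sum in EMSC and 16.4% ± 2.14 in NPS-EMSC (SD, n = 3).

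Among the 10 factors, the promoter window of 4 was in the RefSeq table used here (rat assembly GRCr8, 250 bases before to 50 after the start of the gene). These coordinates are those of GRCr8, since no genome build is named for the deposited tables. The windows of Snai1 and Twist2 are shown because both genes fell and because their windows hold letters bound by factors of the same set. Capitals mark E-boxes (CANNTG) and AP-2 motifs (GCCNNNGGC), and both motifs read the same on both strands. The Snai1 window lies at chr3:176667226-176667525 and the Twist2 window at chr9:99821992-99822291, both on the plus strand and written 5′ to 3′.
Snai1: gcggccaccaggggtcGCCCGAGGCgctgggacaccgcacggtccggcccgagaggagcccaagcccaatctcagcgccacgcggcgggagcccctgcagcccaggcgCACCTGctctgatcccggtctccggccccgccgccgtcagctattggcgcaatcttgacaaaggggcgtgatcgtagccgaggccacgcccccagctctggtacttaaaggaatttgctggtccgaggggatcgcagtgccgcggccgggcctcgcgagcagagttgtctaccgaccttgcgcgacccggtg
Twist2: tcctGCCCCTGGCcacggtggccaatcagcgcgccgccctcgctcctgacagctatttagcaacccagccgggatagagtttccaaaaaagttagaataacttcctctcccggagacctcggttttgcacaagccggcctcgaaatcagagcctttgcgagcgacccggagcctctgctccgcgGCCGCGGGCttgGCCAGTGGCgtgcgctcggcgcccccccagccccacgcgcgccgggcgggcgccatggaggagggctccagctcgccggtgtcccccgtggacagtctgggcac
In the Snai1 window the only E-box, CACCTG, starts at -142 from the start of the gene and is the reverse complement of CAGGTG. Snai1 is known to repress its own promoter through such a site. CAGGTG or its reverse complement CACCTG was found in 18.8% of all 33469 windows and any CANNTG, which includes CAGGTG, in 72.1%. An AP-2 motif lies at -234 in the Snai1 window, and the Twist2 window holds 3, at -246, -66 and -54. The bases after the start in the Twist2 window open with atg, so the start used there may be that of the coding sequence. Its motifs may then lie in transcribed sequence and not in the promoter. Such a motif was found in 15.1% of all windows. The Foxd3 window held 1 E-box, CACGTG at -209, and no AP-2 motif. The Twist1 window held neither motif. The SOX motif ACAATG (reverse complement CATTGT), found in 13.2% of all windows, was in none of the windows of Snai1, Twist1, Twist2 and Foxd3. A match describes the letters only.

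Proteins of the Snail family work through corepressors and are short-lived, being marked for destruction after phosphorylation by GSK3. Of 26 genes listed for these steps 25 were tested (76% called, against 59.3% of all tested genes). In the list 10 rose, 9 fell and 6 were not called, with a median log2 fold change of -0.01. The 4 with the smallest p were in the group that acts on Snail protein. Ctdsp1 and Ctdspl, of a family of small phosphatases of which Ctdsp1 is known to stabilise Snail, fell 1.59-fold and 1.65-fold, Ctdsp1 from 175 ± 8.92 to 110 ± 5.88 CPM (SD, n = 3; adjusted p = 2.55e-11). Fbxl5, a ubiquitin ligase subunit that acts on Snail in the nucleus, rose 1.49-fold to 174 ± 7.48 CPM, and Prkd1, a kinase that phosphorylates Snail, rose 1.77-fold to 41.9 ± 2.51 CPM (adjusted p = 3.04e-10 and 3.32e-10). The rest of this group, named after their values were seen, were all called. The other ubiquitin ligase genes listed, Btrc, Fbxl14 and Fbxo11, fell (log2 fold changes -0.201, -0.274 and -0.243), as did Ctdsp2 (-0.49). Gsk3a, Gsk3b, Lats2 and Pak1 rose (0.483, 0.208, 0.372 and 0.145). Genes of corepressors, all named after their values were seen, were split. Hdac1, Ctbp2 and Ajuba fell 1.16-fold, 1.21-fold and 1.25-fold, while Rcor1, Suz12, Prmt5 and Wtip rose 1.13-fold, 1.18-fold, 1.25-fold and 1.30-fold. Kdm1a, the demethylase that docks on the Snail domain, had 59.8 ± 2.79 and 64.5 ± 0.887 CPM (adjusted p = 0.0899). Transcript levels do not measure Snail protein.

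**Figure D2:**
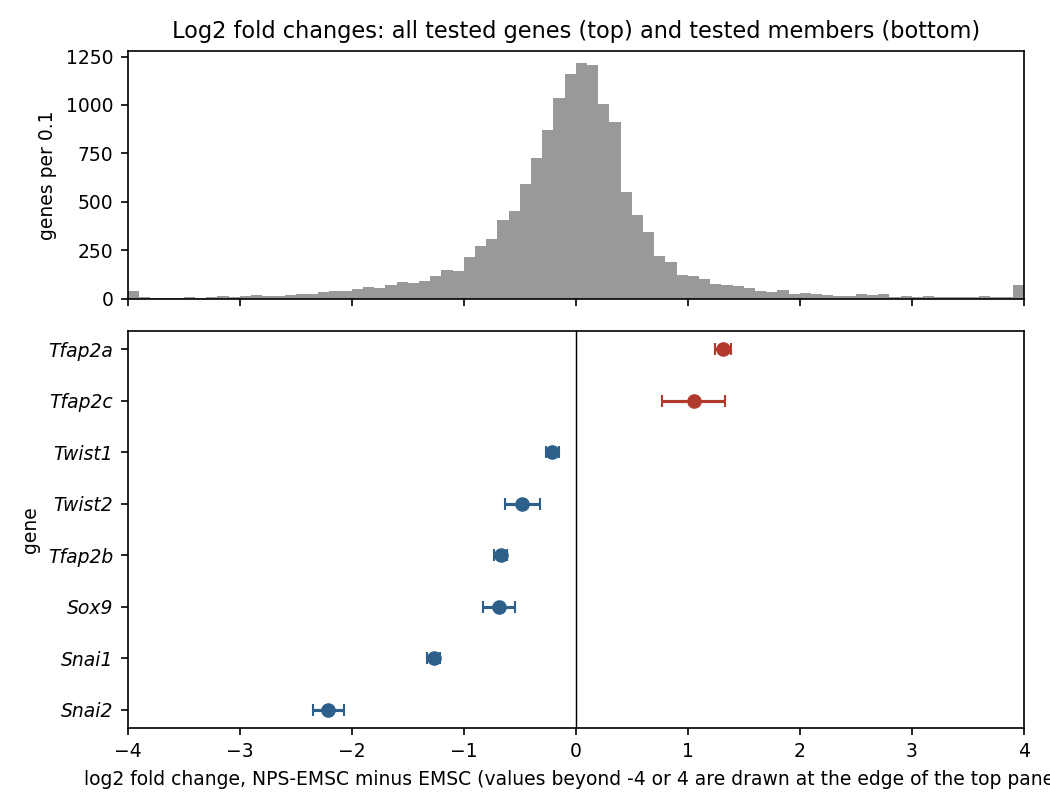
Log2 fold change, NPS-EMSC minus EMSC, of all 14505 tested genes as a histogram (top) and of the 8 tested factors with bars of 1 SE (bottom). Snai2 (-2.21) and Snai1 (-1.27) lie on the left flank of the distribution, Tfap2a (1.32) on the right, and Twist1 (-0.21) near its centre.

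Twist1 and Twist2 encode closely related basic helix-loop-helix factors that pair with E proteins and are active in mesenchyme. Both fell, by less than the Snail genes. Twist1 stood at 39.9, 39.7 and 44.4 FPKM in EMSC and at 35.4, 35.0 and 33.5 FPKM in NPS-EMSC. Its groups did not overlap, but the difference was small, with a log2 fold change of -0.21 (SE 0.06, adjusted p = 0.00367), and 33.2% of all tested genes changed by less. Twist2 (Dermo1) stood at 9.43, 7.10 and 6.88 FPKM in EMSC and at 4.32, 5.82 and 6.14 FPKM in NPS-EMSC. Here the highest EMSC and the lowest NPS-EMSC value stood apart from the other two of their group, and the remaining libraries of the groups lay close together. The log2 fold change was -0.48 (SE 0.16, adjusted p = 0.0106). Without EMSC replicate 1 it was -0.33 (adjusted p = 0.0973), and without NPS-EMSC replicate 1 it was -0.34 (adjusted p = 0.0813), so the call rests on these libraries. On log2(FPKM + 1) without a filter the adjusted p was 0.0676. Reads may be shared between Twist1 and Twist2 where their sequences are alike, and how such reads were counted is not given in the sources used here.

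Transcripts of the E proteins that pair with Twist factors, and of the Id proteins that take E proteins away from them, all fell. Of 7 genes listed, 7 were tested and 7 fell, with a median log2 fold change of -0.89. Over all tested genes, 59.3% were called and 29.5% were called lower. The Id genes had the smallest p. Id1 fell 7.12-fold, Id4 3.89-fold and Id2 3.81-fold, while Id3, the most abundant in CPM, went from 394, 364 and 360 CPM in EMSC to 198, 195 and 210 CPM in the NPS-EMSC group, a 1.86-fold fall (log2 fold change -0.89, SE 0.05, adjusted p = 2.12e-14). The E protein genes, outside the naming rule and named after their values were seen, changed less. Tcf4 fell from 99.3 ± 3.26 to 61.4 ± 2.46 CPM, a 1.62-fold change, and Tcf12 and Tcf3 fell 1.28-fold and 1.20-fold.

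The AP-2 genes encode factors that bind as dimers to GC-rich motifs and are among the earliest regulators of the neural crest. Their members moved in opposite directions, and the most abundant one on the FPKM scale changed from Tfap2b to Tfap2a. Tfap2a (AP-2 alpha) stood at 5.47, 5.57 and 5.43 FPKM in EMSC and at 13.5, 13.3 and 13.1 FPKM in NPS-EMSC. Within each group its libraries lay close together, and the log2 fold change was 1.32 (SE 0.07, adjusted p = 2.39e-14). Tfap2b (AP-2 beta) stood at 12.6, 12.4 and 14.5 FPKM in EMSC and at 7.79, 8.47 and 7.73 FPKM in NPS-EMSC, a 1.59-fold fall (log2 fold change -0.67, SE 0.06, adjusted p = 1.01e-09). Tfap2c (AP-2 gamma) was low throughout, at 0.468, 0.419 and 0.469 FPKM in EMSC and 1.03, 0.913 and 0.845 FPKM in NPS-EMSC. Its 44 to 49 reads in an EMSC library and 87 to 105 in an NPS-EMSC library gave a log2 fold change of 1.05 (SE 0.28, adjusted p = 0.00236). On log2(FPKM + 1) its difference was 0.41, since a pseudocount of 1 exceeds the level of the gene in EMSC.

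By FPKM, Tfap2b was the main AP-2 transcript in each EMSC library, and Tfap2a was in each NPS-EMSC library. By reads, Tfap2b stayed above Tfap2a in NPS-EMSC, with 1810, 1965 and 1811 against 1806, 1772 and 1760. The change of the main transcript thus depends on the implied lengths, 3409 bases for Tfap2a and 5933 for Tfap2b. Tfap2a made up 28.8% ± 1.92 of the summed AP-2 FPKM in EMSC and 59.8% ± 1.06 in NPS-EMSC (SD, n = 3), Tfap2b 68.8% ± 1.97 and 36.0% ± 1.27, and Tfap2c 2.37% ± 0.138 and 4.18% ± 0.374. The sum itself was 18.4 to 20.4 FPKM in EMSC and 21.6 to 22.7 FPKM in NPS-EMSC. The FPKM ratio of Tfap2a to Tfap2b was 0.436, 0.450 and 0.375 in EMSC and 1.74, 1.57 and 1.69 in NPS-EMSC. All EMSC ratios lay below 1 and all NPS-EMSC ratios above it.

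Ratios within 5 pairs of related factors were compared between the groups with an exact two-sided permutation test, whose smallest p with 3 libraries a group is 0.1, so none can pass the 0.05 threshold. The log2 ratio of Tfap2a to Tfap2b (0.1 added to each FPKM) was higher in NPS-EMSC by 1.97, or 3.91-fold, that of Snai1 to Snai2 by 0.95, or 1.93-fold, and that of Tfap2a to Tfap2c by 0.37 (exact permutation p = 0.1 for each, adjusted p = 0.125 over the 5 pairs). In these pairs the log2 ratios of the groups did not overlap, but without the 0.1 added the Tfap2a to Tfap2c ratio did, at 13.3 in EMSC replicate 2 and 13.1 in NPS-EMSC replicate 1. The ratio of Twist1 to Twist2 differed by 0.27 (exact permutation p = 0.5, adjusted p = 0.5), with overlapping groups. That of Sox9 to Sox10 differed by -0.66 (exact permutation p = 0.1, adjusted p = 0.125), but with Sox10 below the 0.1 added, this follows the level of Sox9.

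**Figure D3:**
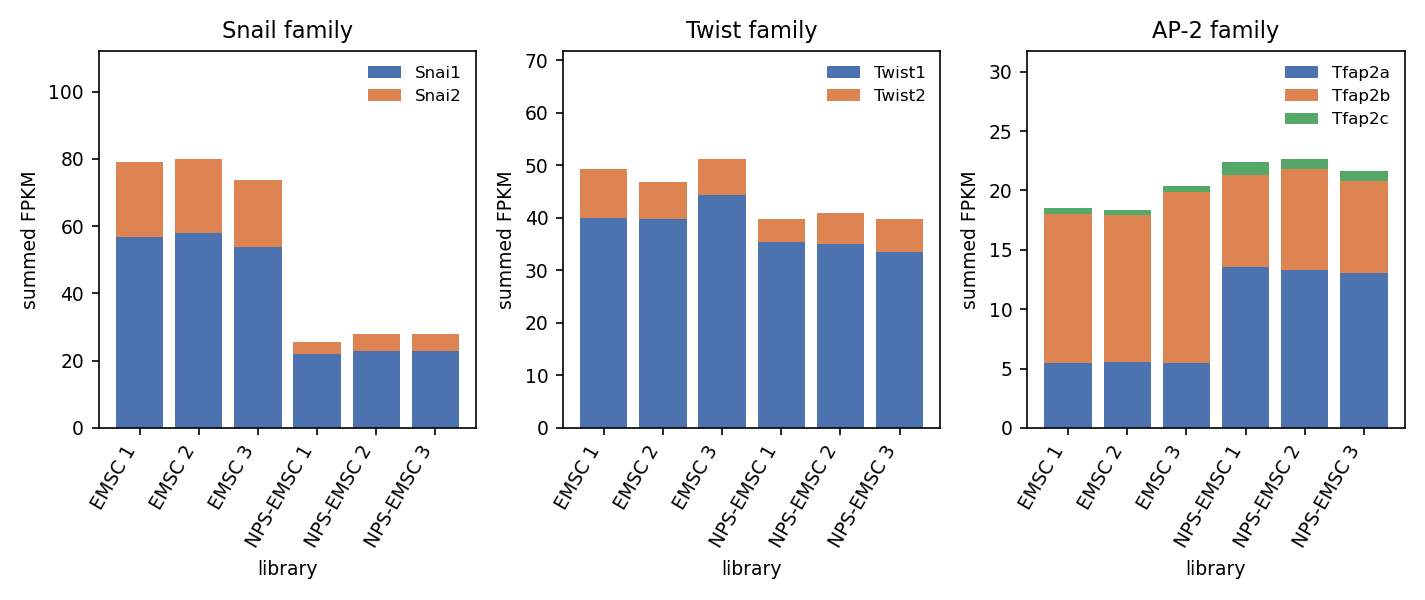
FPKM of the Snail, Twist and AP-2 genes stacked by library, with bars that start at 0 and a separate axis for each family. The Snail sum is 25.4 to 27.9 in NPS-EMSC against 73.8 to 80.1 in EMSC, while the AP-2 sum differs less and its larger part changes from Tfap2b to Tfap2a.

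Genes of proteins that work with AP-2 factors were split. Of 7 listed, 6 were tested, 2 rose, 1 fell and 3 were not called, with a median log2 fold change of 0.04. Calls made up 50% of those tested, against 59.3% of all tested genes. Cited2, a coactivator that links AP-2 to CBP and p300, stood at 172, 170 and 166 CPM in EMSC and 473, 470 and 469 CPM in NPS-EMSC, a 2.78-fold rise (log2 fold change 1.47, SE 0.04, adjusted p = 9.76e-20). Its relative Cited1 had 4, 1 and 3 reads in the EMSC libraries and 314, 265 and 347 reads in the NPS-EMSC libraries (adjusted p = 2.44e-15). Kctd1, an inhibitor of AP-2, fell 1.19-fold (adjusted p = 0.00465), and Ep300, the p300 gene, had 103 ± 5.17 and 111 ± 7.69 CPM (adjusted p = 0.0737).

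Sox9 and Sox10 belong to the SoxE group of high-mobility-group factors. Sox9 stood at 2.16, 2.82 and 2.69 FPKM in EMSC and at 1.63, 1.41 and 1.57 FPKM in NPS-EMSC. The groups did not overlap, and Sox9 fell 1.61-fold (log2 fold change -0.68, SE 0.14, adjusted p = 1.92e-04). Sox8, the third SoxE gene, named after its values were seen, had 49, 40 and 61 reads in EMSC and 24, 10 and 8 in NPS-EMSC, with a log2 fold change of -1.64 (SE 0.46, adjusted p = 0.00356). Sox10 had 1, 5 and 1 reads in EMSC and 0, 4 and 2 in NPS-EMSC, and was not tested. In the library without a read, the level could be up to 0.0784 CPM (3 reads), which covers counting error only. No difference in Sox10 was detectable at this depth.

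Cartilage genes, among which are direct targets of Sox9, included large changes in both directions. Of 18 listed 15 were tested, 7 fell, 2 rose and 6 were not called. The share called, 60%, was near that of all tested genes (59.3%, with 29.5% lower and 29.7% higher), and the median log2 fold change was -0.63. Comp and Epyc, 2 matrix genes, fell 32.2-fold and 25.3-fold, Epyc from 331 ± 42.7 to 13.0 ± 0.400 CPM (SD, n = 3; adjusted p = 9.75e-15), and the collagen IX gene Col9a2 fell 2.89-fold to 12.1 ± 1.78 CPM. Acan, the gene of the cartilage proteoglycan aggrecan, went the other way, from 2.02, 1.88 and 2.30 CPM in EMSC to 19.8, 17.3 and 18.9 CPM in the NPS-EMSC group (log2 fold change 3.15, SE 0.14, adjusted p = 3.85e-16). The second gene called higher was Snorc (adjusted p = 0.0237). The number called higher was 1 without EMSC replicate 3, without NPS-EMSC replicate 1 or without NPS-EMSC replicate 3. Sox6 and Sox5, the partners of Sox9 in cartilage, named after their values were seen, had log2 fold changes of -1.43 (adjusted p = 2.49e-05) and -0.60 (adjusted p = 0.0452). Summed chondrocyte markers were 5.97 to 6.26 CPM in EMSC and 18.4 to 20.5 CPM in NPS-EMSC, nearly all of it Acan in the latter. The part of Sox9 in these values was not tested.

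Genes of the lineages that Sox10 and Foxd3 mark, and surface genes of crest progenitors, changed in both directions. Of 32 listed 18 were tested, 10 fell, 3 rose and 5 were not called (72.2% called, against 59.3% of all tested genes). Their median log2 fold change was -0.65. Itga4, an integrin of migrating crest cells, fell 4.34-fold, from 646, 790 and 688 CPM in EMSC to 172, 155 and 162 CPM in the NPS-EMSC libraries (adjusted p = 2.03e-14). The glial calcium-binding protein gene S100b fell from 13.2 ± 0.611 to 3.30 ± 0.269 CPM (SD, n = 3), and Crabp1, a retinoic acid binding protein gene, fell from 8.36 ± 0.415 to 1.47 ± 0.407 CPM (adjusted p = 4.96e-12 and 5.33e-11). The 3 that rose were named after their values were seen. Ednrb, the endothelin receptor gene of crest and pigment cell precursors, had the largest change of the list and rose 52.5-fold, from 2.36 ± 1.03 to 127 ± 9.55 CPM (adjusted p = 1.91e-05). Kit, a receptor gene of pigment cell precursors, rose 2.25-fold (adjusted p = 0.00297), and Mitf, the pigment cell regulator gene, rose 1.70-fold to 20.7 ± 0.642 CPM (adjusted p = 3.50e-07). Other pigment cell genes of the list, also named after their values were seen, were not called. Pmel had 1.22 ± 0.145 and 1.56 ± 0.234 CPM (adjusted p = 0.371). Tyrp1 had too few reads to be tested, and Dct and Tyr had no value. Of the other glial markers, Sox10, Fabp7, Cdh19 and Gfap were each below 1 CPM in every library. The part of glial cells in these values was not tested.

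Foxd3 encodes a forkhead repressor that keeps crest cells in their early state. It had 6, 2 and 1 reads in EMSC and 3, 3 and 16 in NPS-EMSC, at most 0.131 FPKM, and was not tested. Of its 22 NPS-EMSC reads, 16 came from NPS-EMSC replicate 3, and the other libraries of that group lay within the EMSC range.

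The wider set of neural crest regulators and relatives of the 10 factors was split. Of 36 genes listed 19 were tested (78.9% called, against 59.3% of all tested genes). In the list 8 fell, 7 rose and 4 were not called, with a median log2 fold change of -0.01. Lmo4, a LIM-domain cofactor that can join Snail proteins, fell from 121 ± 7.83 to 76.6 ± 1.89 CPM (SD, n = 3; adjusted p = 6.04e-11). The nuclear receptor genes Nr2f1 and Nr2f2, which act in cranial crest, moved in opposite directions, with Nr2f1 falling 1.28-fold and Nr2f2 rising 1.83-fold to 147 ± 14.0 CPM (adjusted p = 4.02e-06 and 3.92e-10). Scx, a helix-loop-helix gene of tendon, rose 2.14-fold to 9.05 ± 0.555 CPM (adjusted p = 6.18e-07). Genes of the neural plate border, named after their values were seen, did not move together. Dlx5 had 69, 71 and 58 reads in EMSC and 2, 11 and 11 in NPS-EMSC, a 6.53-fold fall (adjusted p = 1.64e-05). Pax3 and Msx1 rose 1.30-fold and 1.18-fold, and Pax7 had 3.15 ± 0.192 and 3.15 ± 0.0990 CPM (adjusted p = 0.994).

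Epithelial genes, which Snail and Twist factors repress, stayed at low levels in both groups, apart from Jup and Pkp1. Of 24 listed only 5 passed the filter, of which 2 rose, 1 fell and 2 were not called. The share called, 60%, was near that of all tested genes (59.3%). Krt18, a keratin gene of simple epithelia, rose from 25, 37 and 22 reads in EMSC to 222, 202 and 270 reads in NPS-EMSC (log2 fold change 3.02, SE 0.24, adjusted p = 6.66e-11), and its partner Krt8 rose 1.65-fold to 5.75 ± 1.29 CPM (adjusted p = 0.00218). The junction gene Jup fell 1.23-fold to 27.5 ± 2.05 CPM (adjusted p = 0.00515), and the splicing factor gene Esrp2 had 0.447 ± 0.288 and 0.916 ± 0.403 CPM (adjusted p = 0.0919). Named after its values were seen, Cdh1, the E-cadherin gene and the classical target of Snail, had 0, 3 and 3 reads in EMSC and 2, 1 and 1 in NPS-EMSC. A difference in Cdh1 was not detectable at this depth. Ocln, a tight junction gene named after its values were seen, had 0, 4 and 0 reads in EMSC and 7, 16 and 12 in NPS-EMSC, which was under the filter. Without a filter on low counts, 6 of the epithelial genes were called higher and 2 lower. The summed epithelial markers, 4.18 to 4.96 CPM in EMSC and 10.3 to 13.2 CPM in NPS-EMSC, were mostly Krt8 and Krt18, with Epcam, Cdh1, Krt5, Krt14 and Foxj1 each below 1 CPM in every library.

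Mesenchymal genes all changed, in both directions. Of 16 listed 16 were tested (100% called, against 59.3% of all tested genes). In the list 9 fell and 7 rose, with a median log2 fold change of -0.20. S100a4 fell 2.26-fold to 349 ± 4.90 CPM (SD, n = 3), the mesenchymal cadherin gene Cdh11 fell 2.42-fold to 420 ± 5.81 CPM, and the growth factor receptor gene Pdgfra fell 1.93-fold to 837 ± 22.9 CPM (adjusted p = 2.55e-17, 2.59e-17 and 1.65e-14). The collagen gene Col3a1 rose 1.48-fold to 6112 ± 139 CPM (adjusted p = 1.31e-09). Zeb1 and Zeb2, repressors that share targets with Snail (named after values were seen), differed in direction, with log2 fold changes of 0.12 (adjusted p = 0.0367) and -0.84 (adjusted p = 2.23e-09).

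**Figure D4:**
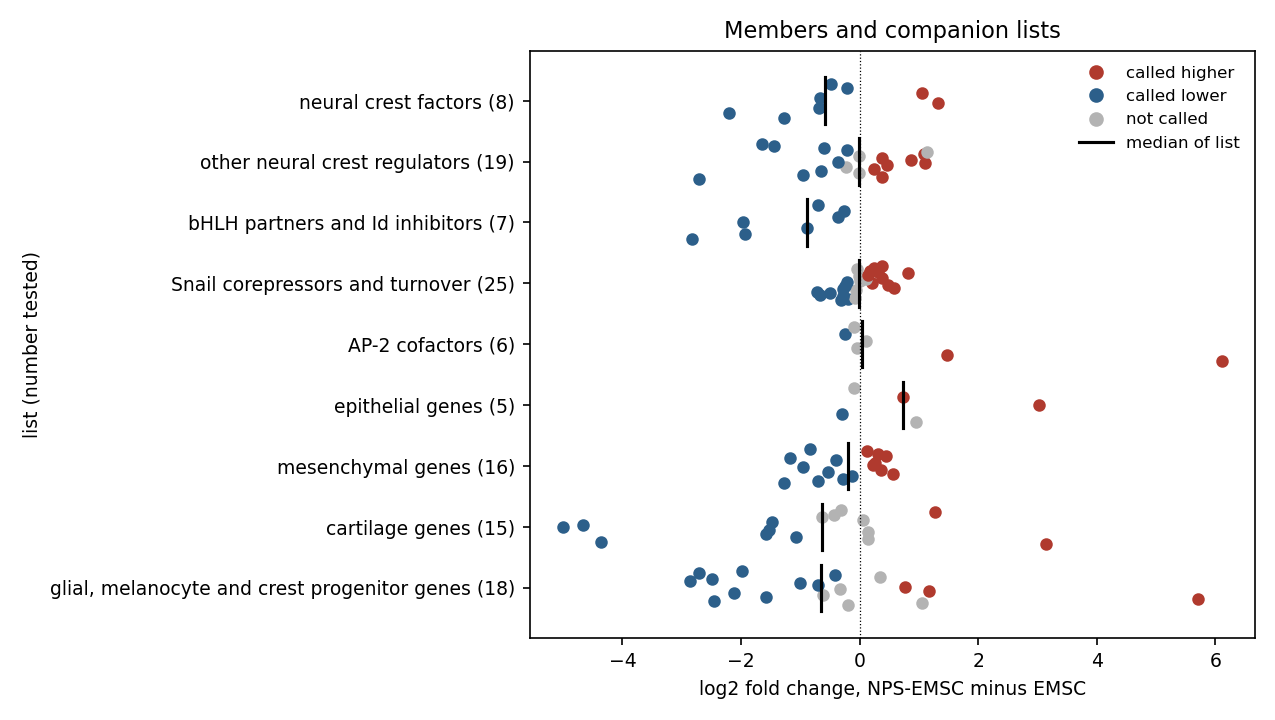
Log2 fold change, NPS-EMSC minus EMSC, of each tested gene in the neural crest factors and the 8 lists of related genes, with the number tested in brackets, red for called higher, blue for called lower, grey for not called and a black bar at the median. The 7 E protein and Id genes all lie below 0, while the mesenchymal list spans both sides.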

How the data were processed

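Total RNA of 3 EMSC and 3 NPS-EMSC libraries was sequenced. The authors deposited raw read counts per gene symbol and FPKM values of the same 20653 genes. Dividing counts by FPKM and column total gave 1 length per gene within 0.1 percent for 20653 genes, so the deposited FPKM are the counts rescaled. Tools listed in the submitters' processing notes, without a role, are DESeq, R 3.2.0, HTSeq, HISAT2, StringTie and fastp. Not given in the sources used here are the genome build, the annotation and the strand setting.

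Counts were tested with edgeR 4.0.16 in R 4.3.3 (TMM, filterByExpr with minimum count 10 and total 15, robust glmQLFit, glmQLFTest) over 14505 genes, with Benjamini-Hochberg adjustment. Every adjusted p of a gene is from this test unless another is named. Log2 fold changes use a prior count of 2. Their SE is the change divided by the square root of F, and CPM use TMM-scaled totals. DESeq2 1.42.0, limma 3.58.1, other scalings and filters, FPKM values, leaving out each library, a threshold of 0.01 and a replicate block were alternatives. The procedure was tested on simulated counts.

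The members and the 8 lists were chosen with earlier results of these data known, and no set test was run. Named genes are all members and up to 4 tested genes per list by smallest p; others are marked in the text, and part of this choice is not reported here. Symbols without a value are not analysed here.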

Additional observations from a re-analysis of the deposited data

How the results depend on the processing

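The direction of the 8 tested factors was the same under each of 16 alternatives, and their calls too in 125 of 128 values. The exceptions are the 3 values of Twist2 given in the report. Without each library in turn, 5 to 6 factors were called lower and 2 higher. The log2 fold change of Snai2 ranged from -2.28 to -2.05 over the alternatives, that of Snai1 from -1.31 to -1.24, that of Tfap2a from 1.14 to 1.33 and that of Tfap2b from -0.71 to -0.60. Over all genes, 3491 to 4539 were called higher and 3495 to 4662 lower.

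Among the counts of the 8 lists, 257 of 272 lay within 1.5 times the value in the report. Epithelial genes called higher and lower were 6 and 2 without a low-count filter, and 0 were called lower on log2(FPKM + 1) without a filter. Cartilage genes called higher were 1 with a filter of 1 CPM in 3 libraries, 1 with limma on log2(FPKM + 1) and on log2(FPKM + 0.1), 1 at an adjusted p under 0.01, and 1 to 3 without each library in turn. Other neural crest regulators called lower were 5 with limma on log2(FPKM + 1) and 5 on log2(FPKM + 0.1), where 12 were tested. AP-2 cofactors called lower were 2 with limma on log2(FPKM + 1), on log2(FPKM + 0.1) and on log2(FPKM + 1) without a filter. The cause was not tested.

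The replicate numbers of the labels do not pair the libraries by the data. Same-numbered libraries had correlations of their deviations from the group means of -0.06, 0.07 and 0.05, and not every library correlated best with its own number. With the replicate number as a block, 6 factors were called lower and 2 higher, and 4331 genes were called higher and 4257 lower. Without a low-count filter, Sox10 and Foxd3 were tested and not called (adjusted p = 0.953 and 0.396). Their 13 and 31 reads over the 6 libraries limit what could be seen.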
